A study of Homo sapiens with 9 samples.

Results

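Genes of the extracellular matrix, the integrins and syndecans that bind it and the proteases that cut it were compared in HepG2 cells with and without KEAP1 knockout (KO). A gene was taken by its symbol: collagens, laminins, integrins, syndecans, matrix metalloproteinases (MMPs), tissue inhibitors of metalloproteinases (TIMPs), ADAM and ADAMTS proteases, lysyl oxidases and olfactomedin-like proteins. Of 11746 numbered rows in the count table, 62 matched these letters. Of these, 57 belong to the 10 families, out of 161 coding genes of those families in the RefSeq gene list. The other 5 share only the letters: ITGA9-AS1, ITGB1BP1, ITGB3BP, MMP24-AS1-EDEM2 and MMP24OS. The filter on low counts left 57 of the 62 to be tested, and COL1A1, ITGA3, LOXL3, MMP3 and MMP7 fell below it.

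HepG2, an established line from a human liver tumour, keeps many features of hepatocytes. All cells had been transduced with lentiviral Cas9 and a guide RNA and selected with puromycin. The guide was directed against AAVS1, a safe-harbour locus, in sgCtrl cells, or against KEAP1 in sgKEAP1-1 and sgKEAP1-2 cells. Each group had 3 libraries, made from RNA taken 48 h after seeding, and the same sgCtrl libraries serve as control for both guides. KEAP1 targets the transcription factor NRF2 for degradation. The sources used here do not say whether the replicates came from separate transductions or cultures, so the p-values measure the spread between these libraries, which may be technical. The methods describe selection of transduced cells and do not mention clones.

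The extracellular matrix is built from fibrillar collagens, from the basement membrane, in which laminins and type IV collagen form networks, and from glycoproteins that join them. Integrins are paired alpha and beta chains that tie the matrix to the cytoskeleton, and syndecans are cell surface proteoglycans that act beside them. MMPs and the ADAM and ADAMTS proteases cut matrix and cell surface proteins, TIMPs hold MMPs in check, and lysyl oxidases cross-link collagen and elastin. In liver tissue most fibrillar collagen comes from stellate cells, whereas hepatocytes are epithelial cells that lie on little organised basement membrane.

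Counted reads in numbered rows ranged from 3011644 to 4725840 per library (median 3758185). KEAP1 mRNA did not mark the KO libraries, with 63.3, 89.2 and 85.3 CPM (reads scaled to a common library size by TMM) in the sgCtrl libraries, 64.1, 62.5 and 53.4 with sgKEAP1-1 and 81.9, 85.6 and 73.9 with sgKEAP1-2, and read counts do not show small insertions or deletions. Its log2 fold changes were -0.40 (adjusted p = 0.211, edgeR quasi-likelihood test) and 0.02 (adjusted p = 0.952). NQO1, a classical NRF2 target, rose from a mean of 521 CPM to 1356 with sgKEAP1-1 and 1738 with sgKEAP1-2 (log2 fold changes 1.38 and 1.74). All 9 hepatocyte markers on the list were in the table. With sgKEAP1-1, 5 fell (ALB, APOA1, TF, FGB and AFP) and 1 rose (TTR), where 1.4% and 2.8% of all features did. With sgKEAP1-2, 6 fell (the same and HNF4A) and 1 rose (TTR), where 4.85% and 5.96% did. APOB and SERPINA1 passed with neither guide. The summed CPM of the 9 markers were 30280 to 37770 in sgCtrl, 17380 to 21890 with sgKEAP1-1 and 14280 to 15980 with sgKEAP1-2. The largest falls in CPM were those of ALB (group means 13660, 6388 and 4320) and AFP (6026, 2500 and 1154), while APOB had 4841, 4654 and 4932. Of the 10 fibroblast or stellate cell markers, PDGFRB, ACTA2 and COL1A1 were in the table and none was called. Those 3 summed to 56.1 to 68.6, 54.0 to 74.3 and 65.6 to 76.3 CPM in the 3 groups, and DCN, LUM, COL1A2 and COL3A1 were not in the table. The table held 0 of 5 endothelial markers. Of the 5 leukocyte markers, CD68, CD14 and LYZ were present and not called (summed CPM 965.6 to 1812, 1002 to 2544 and 686.1 to 1542, nearly all from LYZ), and the pan-leukocyte gene PTPRC was not in the table. Replicate 2 stood apart from the other libraries on the second principal component, as did sgKEAP1-2 replicate 3 on the opposite side.

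A total of 20 members had an adjusted p-value under 0.05 with at least one guide. With sgKEAP1-1, 7 rose and 5 fell, where 2.8% and 1.4% of all 11064 features tested did so. With sgKEAP1-2, 13 rose and 7 fell, where 5.96% and 4.85% of all features did. These are 12.28% and 8.77% of the 57 members tested with sgKEAP1-1, and 22.81% and 12.28% with sgKEAP1-2. The counts by family below are read against the same shares over all features. The counts with sgKEAP1-1 were 3 higher and 1 lower without sgCtrl replicate 1, and 2 higher and 2 lower without sgCtrl replicate 3. Those with sgKEAP1-2 were 8 higher and 6 lower without sgCtrl replicate 1. Shares over all features are not given for these fits, so these counts do not show whether members lost calls more often than other features. All 12 calls with sgKEAP1-1 were also made with sgKEAP1-2, in the same direction, which the shared sgCtrl libraries partly build in. The remaining 37 members passed with neither guide in the main fit, which has no term for the replicate number. The median size of the log2 fold change was 0.39 and 0.65 over the members, against 0.19 and 0.24 over all features. The signed medians were 0.14 and 0.19, against -0.001 and -0.014 over all features, so the members moved both ways.

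**Figure D1:**
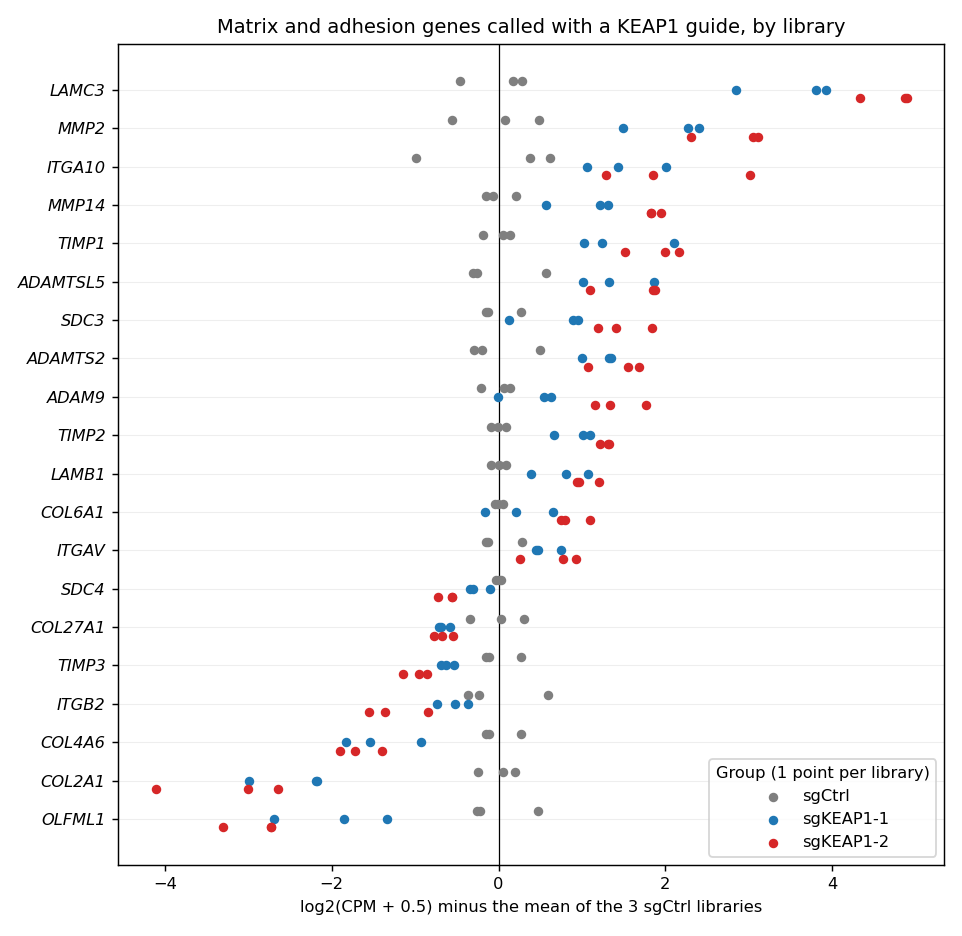
Each point is 1 library of sgCtrl (grey), sgKEAP1-1 (blue) or sgKEAP1-2 (red), plotted as log2(CPM + 0.5) minus the mean of the 3 sgCtrl libraries, for the 20 members called with at least one guide. LAMC3 and MMP2 lie farthest to the right, and OLFML1 and COL2A1 farthest to the left.

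In 11 of the 57 tested members all 6 KO libraries lay above all sgCtrl libraries, a pattern shown by 8.04% of all features tested. In 9 all lay below, shown by 6.74%. MMP7, which was not tested, also had all KO libraries above sgCtrl. The 11 were LAMB1, LAMC3, ITGA10, MMP2, MMP14, TIMP1, TIMP2, ADAM19, ADAMTS2, ADAMTS4 and ADAMTSL5. The 9 were COL2A1, COL27A1, COL4A5, COL4A6, ITGB2, SDC4, TIMP3, ADAM22 and OLFML1. The 3 collagens that passed with both guides fell, and the 2 laminins, 2 MMPs and 1 ADAMTS gene that did so rose. In the 9 fits that left out a library, the calls with sgKEAP1-1 held to different degrees. COL2A1 and LAMC3 held in 9, LAMB1 in 7 and COL27A1 in 6, against 4 for MMP2, 3 for COL4A6 and 2 for MMP14 and ADAMTS2.

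**Figure D2:**
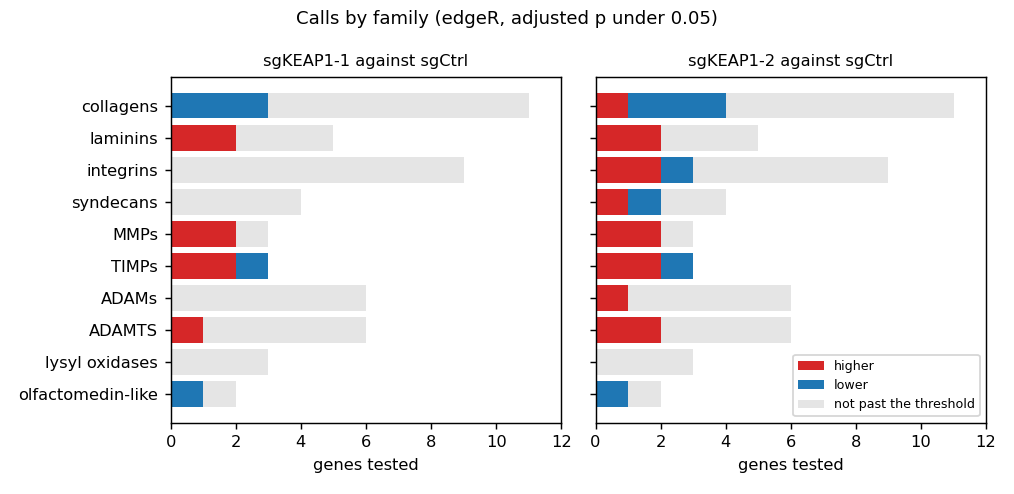
Bars count the tested genes of each family (horizontal axis) that were higher (red), lower (blue) or not past an adjusted p-value of 0.05 (grey), with sgKEAP1-1 in the left panel and sgKEAP1-2 in the right. All 3 TIMPs were called with both guides, and no lysyl oxidase was called with either.

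Among the collagens, 12 of 44 genes were in the table and 11 were tested. With sgKEAP1-1, 3 fell and 0 rose, where 1.4% and 2.8% of all features did. With sgKEAP1-2 the same 3 fell and 1 rose, where 4.85% and 5.96% did. COL2A1, the fibrillar collagen that is the main collagen of cartilage, had 23.9, 17.4 and 21.5 CPM in the sgCtrl libraries, 4.14, 2.18 and 4.21 with sgKEAP1-1 and 2.15, 0.73 and 2.91 with sgKEAP1-2. Every sgCtrl library was above every KO library. This gave a log2 fold change of -2.58 (SE 0.34, adjusted p = 0.000353) with sgKEAP1-1 and -3.43 (SE 0.38, adjusted p = 3.55e-05) with sgKEAP1-2. Both calls held with each library left out in turn.

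COL27A1, another fibrillar collagen of cartilage and the collagen with the most reads here, had 397, 254 and 329 CPM in sgCtrl, 196, 199 and 214 with sgKEAP1-1 and 187, 220 and 200 with sgKEAP1-2. The sgCtrl libraries spread over a wider range than the KO libraries but did not overlap them. Its log2 fold change was -0.69 with each guide (SE 0.15 for both, adjusted p = 0.0151 and 0.00764). Without sgCtrl replicate 1 the adjusted p-values were 0.108 and 0.0524, and the call with sgKEAP1-1 was also lost without sgCtrl replicate 3 (0.0671) or sgKEAP1-1 replicate 1 (0.0822). COL9A3, a chain of the type IX collagen that coats type II collagen fibrils, was the next in reads and ranged from 139 to 210 CPM over all 9 libraries, with log2 fold changes of 0.06 and -0.03 (adjusted p = 0.918 and 0.926).

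COL4A5 and COL4A6 encode basement membrane chains of type IV collagen and lie head to head on the X chromosome. In the RefSeq promoter table (GRCh38.p14) their start sites are 380 bases apart, at positions 108439838 and 108439458, so the windows upstream of both genes share the stretch below. It is shown because both genes start beside this one region and both were lower in every KO library than in any sgCtrl library. Capitals mark the letters GCTCAGTCA, which read TGACTGAGC on the other strand and match the core of the antioxidant response element that NRF2 binds.
COL4A5 and COL4A6 shared stretch, chrX:108439588-108439708 (+): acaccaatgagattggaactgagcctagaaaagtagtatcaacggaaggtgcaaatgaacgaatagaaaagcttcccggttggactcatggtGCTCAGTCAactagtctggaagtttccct

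COL4A6 had 5.30, 5.44 and 7.25 CPM in sgCtrl, 1.71, 1.31 and 2.89 with sgKEAP1-1 and 1.23, 1.95 and 1.45 with sgKEAP1-2. The KO libraries were all below sgCtrl and the guides overlapped each other. It fell with both guides, by 1.62 (SE 0.41, adjusted p = 0.0387) and 1.92 (SE 0.43, adjusted p = 0.0094) on the log2 scale. With sgKEAP1-1 the call was lost without any one of the sgCtrl libraries, sgKEAP1-1 replicates 1 and 2 or sgKEAP1-2 replicate 1 (adjusted p up to 0.177), and with sgKEAP1-2 without sgCtrl replicate 3 (adjusted p = 0.051). COL4A5 had 16.7, 18.03 and 13.7 CPM in sgCtrl, 7.55, 8.50 and 13.2 with sgKEAP1-1 and 8.31, 10.7 and 7.51 with sgKEAP1-2. All KO libraries were below the sgCtrl libraries, sgKEAP1-1 replicate 3 by a narrow margin. The log2 fold changes of -0.73 (adjusted p = 0.165) and -0.86 (adjusted p = 0.054) did not pass in the fit without a term for the replicate number. With the term COL4A5 passed with sgKEAP1-2 (adjusted p = 0.027).

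COL6A1 is a chain of the microfibril-forming type VI collagen. It was the collagen that rose in the fit without a term for the replicate number, where only the contrast of sgKEAP1-2 passed. It had 8.74, 8.51 and 9.20 CPM in sgCtrl, 7.79, 10.2 and 14.2 with sgKEAP1-1 and 15.7, 15.1 and 19.4 with sgKEAP1-2. The sgKEAP1-1 libraries straddled the sgCtrl libraries (log2 fold change 0.28, adjusted p = 0.727) and the sgKEAP1-2 libraries were all above them (0.92, SE 0.25, adjusted p = 0.0306). That call was lost without any one of the sgCtrl libraries and without sgKEAP1-2 replicate 1 or 3 (adjusted p up to 0.101). The other tested collagens were COL7A1, which forms the anchoring fibrils of skin, COL9A2, COL16A1, COL18A1, the basement membrane collagen from which endostatin is released, and COL26A1. Their log2 fold changes lay between -0.26 and 1.32 and none passed in the fit without a term for the replicate number. With the term COL26A1 rose with sgKEAP1-2 (adjusted p = 0.0354). COL1A1, the main chain of type I collagen, had at most 5.10 CPM in any library and was not tested. The 12 collagens together took 817.7, 584.2 and 681.2 CPM in sgCtrl, 528.3, 537.9 and 550.1 with sgKEAP1-1 and 494.4, 565.1 and 551.7 with sgKEAP1-2, lower in each KO library than in any sgCtrl library. COL27A1 and COL9A3 together made 67.2% to 74.2% of these reads in every library.

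**Figure D3:**
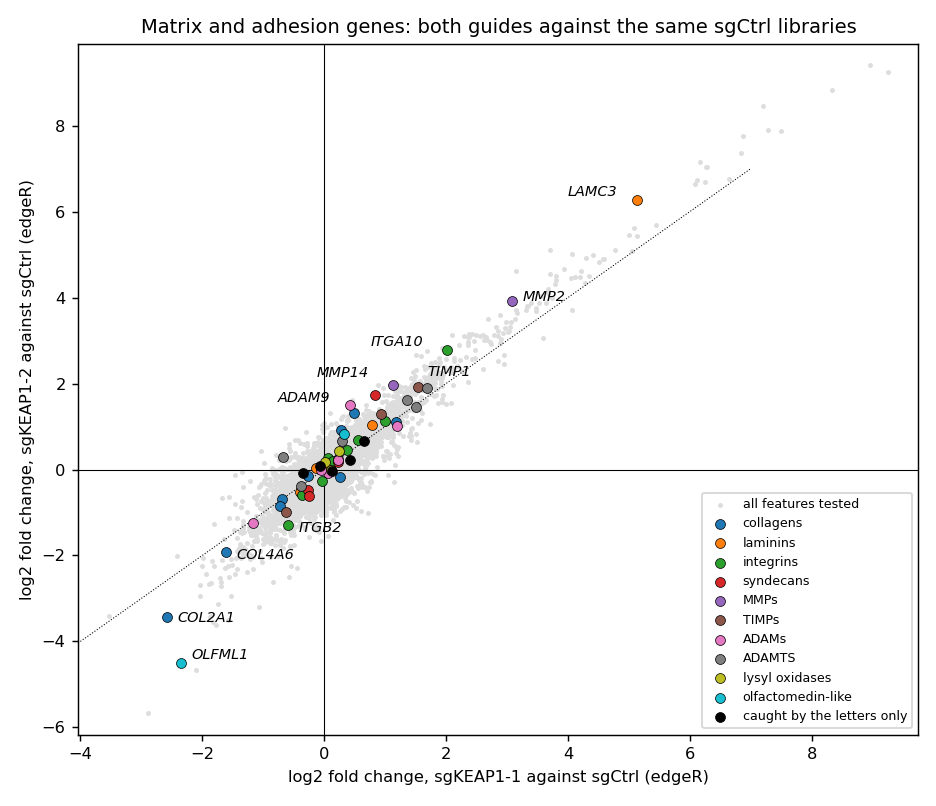
Log2 fold change against sgCtrl with sgKEAP1-1 (horizontal) and with sgKEAP1-2 (vertical) for the 57 tested members, coloured by family, over all 11064 features in grey. The dotted line marks equal values, and since both axes use the same sgCtrl libraries a shared direction is partly built in. LAMC3 lies at 5.13 and 6.28 and COL2A1 at -2.58 and -3.43.

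Laminins are trimers of an alpha, a beta and a gamma chain, and 5 of 12 chains were in the table, all tested. LAMB1 and LAMC3 rose with both guides and LAMA5, LAMB2 and LAMC1 passed with neither in the fit without a term for the replicate number. With the term LAMB2 fell with sgKEAP1-2 (adjusted p = 0.0182). The beta chain LAMB1 had the highest mean level of the laminins over all 9 libraries, although LAMC1 was higher in sgCtrl (mean 174.5 against 138.0 CPM). It had 129, 147 and 138 CPM in sgCtrl, 241, 291 and 181 with sgKEAP1-1 and 270, 317 and 265 with sgKEAP1-2. No sgCtrl library reached the level of a KO library. The log2 fold changes were 0.79 (SE 0.16, adjusted p = 0.0093) and 1.04 (SE 0.16, adjusted p = 0.000599). Without sgCtrl replicate 1 or sgCtrl replicate 3 the call with sgKEAP1-1 was lost (adjusted p up to 0.0678).

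LAMC3, a gamma chain found in fewer tissues than LAMC1, was near the limit of detection in sgCtrl cells. It had 0, 0.34 and 0.28 CPM there, from 2 reads in all, against 9.99, 9.15 and 4.47 with sgKEAP1-1 and 20.01, 13.4 and 19.6 with sgKEAP1-2. The KO libraries held 100 and 201 reads. The ratio of CPM was 41.2 (95% exact counting interval 11.1 to 345) with sgKEAP1-1 and 90.2 (24.6 to 750) with sgKEAP1-2, where the intervals cover counting error only. Adjusted p-values were 0.000173 and 5.8e-06, and both calls held with each library left out in turn.

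LAMB2, the other beta chain, had 83.7, 63.0 and 60.8 CPM in sgCtrl, 45.5, 61.6 and 50.8 with sgKEAP1-1 and 46.2, 54.1 and 43.1 with sgKEAP1-2 (log2 fold changes -0.39 and -0.53, adjusted p = 0.287 and 0.0632). LAMB1 thus made 66.7% ± 5.2 of the reads of both beta chains in sgCtrl, 81.6% ± 3.1 with sgKEAP1-1 and 85.6% ± 0.34 with sgKEAP1-2 (SD, n = 3 each). LAMC1, the common gamma chain, ranged from 143 to 194 CPM and LAMA5, the alpha chain of laminin 511, from 74.5 to 102 CPM over all libraries, with no group standing apart. Their log2 fold changes lay between -0.13 and 0.10.

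Integrins, the matrix receptors, were represented by 10 of 21 genes, 9 of them tested. In the fit without a term for the replicate number no integrin passed with sgKEAP1-1, and with sgKEAP1-2 ITGAV and ITGA10 rose and ITGB2 fell. ITGAV, the alpha chain of the receptors for vitronectin, had 38.7, 52.7 and 39.3 CPM in sgCtrl, 59.9, 72.8 and 59.2 with sgKEAP1-1 and 74.2, 82.4 and 51.6 with sgKEAP1-2. The sgKEAP1-1 libraries were all above sgCtrl, and sgKEAP1-2 replicate 3 lay just under sgCtrl replicate 2. Log2 fold changes were 0.56 (SE 0.19, adjusted p = 0.137) and 0.68 (SE 0.19, adjusted p = 0.0346). The call with sgKEAP1-2 was lost without sgCtrl replicate 1 or 3, sgKEAP1-1 replicate 1, or sgKEAP1-2 replicate 1 or 2 (adjusted p up to 0.148). It was also lost with limma-voom (0.0521) and with only the 2 groups compared in the fit (0.0549). With a term for the replicate number ITGAV also passed with sgKEAP1-1 (adjusted p = 0.0146).

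ITGA2, the alpha chain of a collagen receptor, had 31.5, 66.7 and 38.5 CPM in sgCtrl, 72.6, 126 and 70.7 with sgKEAP1-1 and 94.8, 133 and 66.1 with sgKEAP1-2. Replicate 2 was the highest in each group, and within each replicate number both KO libraries were above the sgCtrl library. Its log2 fold changes of 0.99 (SE 0.36, adjusted p = 0.212) and 1.12 (SE 0.36, adjusted p = 0.0859) did not pass in the fit without a term for the replicate number. With the term both passed (adjusted p = 9.12e-05 and 1.25e-05). ITGB1, the beta chain shared by most collagen and laminin receptors, ranged from 64.1 to 86.1 CPM in sgCtrl, 83.1 to 106 with sgKEAP1-1 and 93.6 to 117 with sgKEAP1-2. Its log2 fold changes were 0.38 and 0.46 (adjusted p = 0.246 and 0.0758). With the term ITGB1 passed with sgKEAP1-2 (adjusted p = 0.0102) and not with sgKEAP1-1 (0.0557).

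ITGB2, the beta chain of leukocyte integrins, was read in every library of this liver line. It had 42.9, 83.7 and 46.9 CPM in sgCtrl, 38.2, 42.7 and 32.9 with sgKEAP1-1 and 21.2, 18.5 and 30.5 with sgKEAP1-2. All KO libraries were below sgCtrl, sgKEAP1-1 replicate 2 narrowly, and sgCtrl replicate 2 stood far above the others. The log2 fold change was -0.60 with sgKEAP1-1 (adjusted p = 0.277) and -1.29 with sgKEAP1-2 (SE 0.26, adjusted p = 0.0058). Without sgCtrl replicate 2 the former was -0.24, and with all of replicate 2 left out the latter was -0.773 and kept its call. The alpha partners of ITGB2 are outside the letters used here, and PTPRC was not in the table.

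ITGA10, the alpha chain of a collagen II receptor of cartilage, had few reads. It had 0.79, 1.02 and 0 CPM in sgCtrl, 2.19, 3.49 and 1.58 with sgKEAP1-1 and 3.08, 7.56 and 1.94 with sgKEAP1-2. All KO libraries were above sgCtrl, and sgKEAP1-2 replicate 2 was the highest. Log2 fold changes were 2.01 (SE 0.82, adjusted p = 0.25) and 2.79 (SE 0.77, adjusted p = 0.0306), and without sgKEAP1-2 replicate 2, sgCtrl replicate 1 or sgCtrl replicate 3 the latter was no longer called (adjusted p up to 0.165). ITGA6, the alpha chain of laminin receptors, and ITGB5, a partner of ITGAV with the most reads of any beta chain, ranged from 73.2 to 127 and from 185 to 278 CPM, with no group standing apart. ITGA1 and ITGB4 also passed with neither guide in the fit without a term for the replicate number. With the term ITGA1 fell with sgKEAP1-2 (adjusted p = 0.0364).

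All 4 syndecans were tested, and none passed with sgKEAP1-1. SDC4, a syndecan of focal adhesions, had 205, 197 and 201 CPM in sgCtrl, 163, 159 and 188 with sgKEAP1-1 and 137, 122 and 137 with sgKEAP1-2. The groups formed 3 steps with no overlap between sgCtrl and either guide. Its log2 fold change was -0.24 (SE 0.12, adjusted p = 0.361) with sgKEAP1-1 and -0.61 (SE 0.12, adjusted p = 0.00383) with sgKEAP1-2. SDC3, known from the nervous system, moved the other way, from 1.32, 1.36 and 1.95 CPM to 1.71, 3.27 and 3.42 and to 6.77, 4.88 and 4.12. It passed with sgKEAP1-2 (log2 fold change 1.73, SE 0.45, adjusted p = 0.0225) but not with sgKEAP1-1 (0.84, adjusted p = 0.462), and the call was lost without sgCtrl replicate 1, sgCtrl replicate 2 or sgKEAP1-2 replicate 1 (adjusted p up to 0.0951). SDC1, the main syndecan of epithelial cells, and SDC2 had 137 to 221 and 111 to 265 CPM. Neither gene passed with either guide in the fit without a term for the replicate number. With the term SDC2 fell with sgKEAP1-2 (adjusted p = 0.00444, against 0.27 without it).

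MMPs were represented by 5 of 23 genes. MMP2, MMP14 and MMP15 were tested, MMP3 and MMP7 were not. MMP14, a membrane-bound protease that activates MMP2, had 4.50, 3.40 and 3.62 CPM in sgCtrl, 9.50, 5.88 and 10.3 with sgKEAP1-1 and 14.8, 14.9 and 16.2 with sgKEAP1-2. The 3 groups did not overlap. Log2 fold changes were 1.13 (SE 0.30, adjusted p = 0.0469) and 1.98 (SE 0.28, adjusted p = 0.000359). The call with sgKEAP1-1 was lost in 7 of 9 fits that left out a library (adjusted p up to 0.165) and with limma-voom or DESeq2, whereas that with sgKEAP1-2 held in all of these.

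MMP2, the gelatinase that cleaves type IV collagen, had 0.53, 0 and 0.28 CPM in sgCtrl, from 3 reads in all. It had 3.41, 3.05 and 1.58 CPM with sgKEAP1-1 (34 reads) and 5.85, 5.61 and 3.15 with sgKEAP1-2 (55 reads), all above sgCtrl. The ratios were 9.34 (95% exact counting interval 2.94 to 47.5, adjusted p = 0.0273) and 16.5 (5.34 to 82.2, adjusted p = 0.0017). The call with sgKEAP1-1 was lost without any one sgCtrl library and without sgKEAP1-1 replicate 1 or 2 (adjusted p up to 0.109). MMP15, a further membrane-bound MMP and the one with the most reads, had 41.2 to 66.9 CPM over all libraries, with log2 fold changes of 0.23 and 0.25 (adjusted p = 0.576 and 0.387).

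MMP7, matrilysin, had no reads in any sgCtrl library. It had 0.97, 2.40 and 0.79 CPM with sgKEAP1-1 (18 reads) and 1.23, 2.44 and 1.21 with sgKEAP1-2 (19 reads). Against a floor of 3 reads over the sgCtrl group, MMP7 was at least 4.94-fold higher in the sgKEAP1-1 group. For sgKEAP1-2 the bound was at least 5.68-fold higher. The gene was below the filter, and in a fit without the filter its adjusted p-values were 0.0564 and 0.0228. The stretch upstream of its start site is shown since it was the one member window with the letters TGANTCA of an AP-1 site, in capitals, 67 to 61 bases before the start.
MMP7 upstream stretch, chr11:102530788-102530834 (-), GRCh38.p14: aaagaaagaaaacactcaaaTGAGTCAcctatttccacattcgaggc

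The TIMPs were the family in which every tested member was called with both guides. TIMP1 had 32.9, 31.0 and 26.2 CPM in sgCtrl, 130, 61.2 and 71.3 with sgKEAP1-1 and 121, 86.3 and 135 with sgKEAP1-2. The KO libraries all lay above sgCtrl, with a wide spread among the sgKEAP1-1 libraries. The log2 fold changes were 1.54 (SE 0.28, adjusted p = 0.00777) and 1.93 (SE 0.28, adjusted p = 0.000964). Without sgCtrl replicate 3 the adjusted p-value with sgKEAP1-1 was 0.0503.

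TIMP2, which also takes part in the activation of MMP2 by MMP14, had 81.9, 72.5 and 76.96 CPM in sgCtrl, 156, 165 and 122 with sgKEAP1-1 and 193, 192 and 180 with sgKEAP1-2. The 3 groups did not overlap. It rose by 0.94 (SE 0.14, adjusted p = 0.000786) and 1.29 (SE 0.14, adjusted p = 2.52e-05) on the log2 scale, and both calls held with each library left out in turn.

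TIMP3, the inhibitor that binds to the matrix and also blocks ADAM17, moved the other way. It had 344, 262 and 255 CPM in sgCtrl, 176, 183 and 197 with sgKEAP1-1 and 146, 157 and 128 with sgKEAP1-2. Here too the 3 groups did not overlap, with log2 fold changes of -0.63 (SE 0.14, adjusted p = 0.0163) and -0.996 (SE 0.14, adjusted p = 0.000299). Without sgCtrl replicate 1 or sgKEAP1-1 replicate 1 the call with sgKEAP1-1 was lost (adjusted p up to 0.114). The gene lies within SYN3, which had 96 reads over all libraries against 6943 for TIMP3, and the strand setting of the counting is not given.

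The summed level of the 3 TIMPs overlapped between groups while its make-up did not. It came to 458.9, 365.1 and 358.3 CPM in sgCtrl, 462.3, 409.1 and 390.2 with sgKEAP1-1 and 460.8, 434.6 and 443.6 with sgKEAP1-2. TIMP3 made 72.6% ± 2.07 of these reads in sgCtrl, 44.4% ± 6.22 with sgKEAP1-1 and 32.3% ± 3.59 with sgKEAP1-2 (SD, n = 3 each), with no overlap between sgCtrl and either guide. Reads were taken at the transcript end, so these shares need no correction for length.

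**Figure D4:**
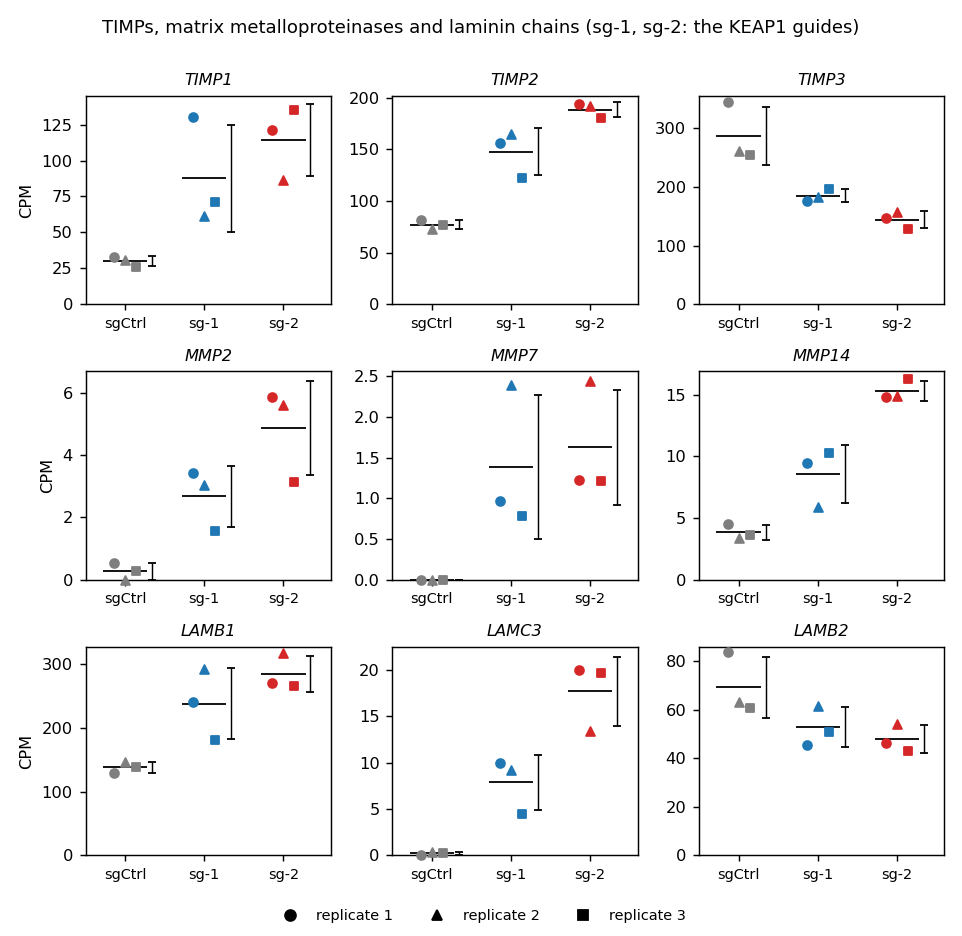
CPM of 3 TIMPs, 3 MMPs and 3 laminin chains (vertical axes from 0) in the 9 libraries, with the marker shape giving the replicate number, a line at each group mean and a bar of 1 SD to its right, cut at 0. TIMP1, TIMP2, MMP2, MMP14, LAMB1 and LAMC3 were higher and TIMP3 lower in every KO library than in any sgCtrl library. MMP7 had no sgCtrl reads. For LAMB2, sgCtrl overlapped sgKEAP1-1 only, and the libraries of the other guide lay below every sgCtrl library.

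ADAMs are membrane-anchored proteases that release cell surface proteins, and 6 of 20 were in the table and tested. ADAM9 had 7.95, 6.12 and 7.53 CPM in sgCtrl, 10.7, 11.3 and 7.10 with sgKEAP1-1 and 16.6, 25.6 and 18.9 with sgKEAP1-2. The sgKEAP1-1 libraries overlapped sgCtrl and the sgKEAP1-2 libraries were above both. The log2 fold change was 0.43 (SE 0.28, adjusted p = 0.528) with sgKEAP1-1 and 1.49 (SE 0.26, adjusted p = 0.00183) with sgKEAP1-2, and the latter held with each library left out in turn. ADAM9 overlaps TM2D2, which had 1545 reads over all libraries against 435 for ADAM9, so reads of the pair could be mixed. ADAM10 and ADAM17, the main sheddases of many cells, had 68.3 to 105 and 71.3 to 96.0 CPM and log2 fold changes between -0.07 and 0.23, none past the threshold. ADAM22, a relative without protease activity known from synapses, had 4.24, 4.08 and 4.74 CPM in sgCtrl and at most 3.16 in any KO library (log2 fold changes -1.16 and -1.24, adjusted p = 0.217 and 0.112). ADAM19 had 0.27, 3.06 and 1.67 CPM in sgCtrl and 3.08 to 4.14 in the KO libraries (1.20 and 1.01, adjusted p = 0.322 and 0.308). ADAM15 passed with neither guide.

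In the ADAMTS family of secreted proteases and their relatives without a protease domain, 6 of 24 genes were in the table, all tested. ADAMTS2, which removes the amino-terminal propeptide of fibrillar procollagens, had 2.12, 3.74 and 1.95 CPM in sgCtrl, 7.06, 7.19 and 5.52 with sgKEAP1-1 and 5.85, 8.29 and 9.21 with sgKEAP1-2. Each KO library was above sgCtrl (log2 fold changes 1.36, SE 0.36, adjusted p = 0.0479, and 1.61, SE 0.36, adjusted p = 0.00899). The call with sgKEAP1-1 held in 2 of 9 fits that left out a library (adjusted p up to 0.196) and was lost with limma-voom (0.0699) and with only the 2 groups compared in the fit (0.0578). Its upstream stretch is shown because ADAMTS2 was the member called higher, without a replicate term, whose window held the response element core. The core is in capitals on the opposite strand, 145 to 137 bases before the start.
ADAMTS2 upstream stretch, chr5:179345578-179345626 (-), GRCh38.p14: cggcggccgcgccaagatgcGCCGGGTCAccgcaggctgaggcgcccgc

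ADAMTSL5 had 1.06, 2.38 and 1.11 CPM in sgCtrl, 6.58, 4.36 and 3.42 with sgKEAP1-1 and 6.46, 6.58 and 3.63 with sgKEAP1-2. It passed with sgKEAP1-2 (log2 fold change 1.89, SE 0.47, adjusted p = 0.0191) and not with sgKEAP1-1 (1.68, SE 0.48, adjusted p = 0.0663), although all KO libraries were above sgCtrl. Without sgCtrl replicate 1, sgCtrl replicate 3, sgKEAP1-2 replicate 1 or sgKEAP1-2 replicate 2 the call with sgKEAP1-2 was lost (adjusted p up to 0.0947). With a term for the replicate number ADAMTSL5 also passed with sgKEAP1-1 (adjusted p = 0.0259). ADAMTS4, an aggrecanase, had at most 1.36 CPM in sgCtrl and at least 1.84 in the KO libraries (log2 fold changes 1.51 and 1.46, adjusted p = 0.154 and 0.11). ADAMTS6, ADAMTSL2 and ADAMTSL4, which had the most reads of the family, passed with neither guide.

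Response element cores were looked for in the 57 windows of 45 members in the RefSeq promoter table, each of which spans 250 bases before to 50 after a start site. The letters TGACNNNGC on either strand were present in 6 of these 57 windows (10.53%), 1 each of ITGB5, ITGA1, ADAMTS2, ITGB1, COL4A6 and COL4A5, against 13.34% of all 34796 windows. The letters TGANTCA were present in 1 window, that of MMP7 (1.75%), against 7.73% of all windows. The matches of COL4A5 and COL4A6 are the same site, read on opposite strands. Windows of identical sequence were counted once over all windows but not over the members, so the shares are not on quite the same basis. The 2 patterns can overlap in one stretch. Among the 6 genes, ADAMTS2 rose and COL4A6 fell. The others, ITGB5, ITGA1, ITGB1 and COL4A5, passed with neither guide in the fit without a term for the replicate number. With the term, ITGB1 rose (adjusted p = 0.0102) and ITGA1 (0.0364) and COL4A5 (0.027) fell with sgKEAP1-2.

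Of the 4 lysyl oxidases in the table (of 5), 3 were tested and none was called. LOX, which cross-links collagen and elastin, had 5.83, 50.7 and 7.53 CPM in sgCtrl, 12.2, 37.9 and 16.3 with sgKEAP1-1 and 14.5, 27.1 and 19.4 with sgKEAP1-2. Replicate 2 was the highest in each group, and by far in sgCtrl. Log2 fold changes over all libraries were 0.11 (SE 0.84, adjusted p = 0.977) and -0.02 (SE 0.85, adjusted p = 0.992), and with the 3 libraries of replicate 2 left out they were 1.08 (adjusted p = 0.0922) and 1.36 (adjusted p = 0.0131). Leaving out sgCtrl replicate 2 alone gave 1.74 (adjusted p = 0.103) and 1.61 (adjusted p = 0.0844). LOX overlaps SRFBP1, which had 777 reads over all libraries against 722 for LOX. LOXL4 had 6.89, 15.7 and 9.20 CPM in sgCtrl and 8.94 to 12.6 in the KO libraries, and LOXL3, not tested, had 1.32, 7.83 and 0.84 CPM in sgCtrl and at most 3.27 in the KO libraries. LOXL2 had 0.79 to 4.42 CPM and did not pass.

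Replicate 2 was the highest library of its group in all 3 groups for 11 members, 19.3% of those tested, where 12.2% of all features showed this. The 11 were ADAM10, ADAMTS6, ITGA10, ITGA2, ITGA6, ITGAV, ITGB1, LAMB1, LOX, LOXL4 and SDC2, so 5 of the 9 tested integrins were among them. It was the lowest in all 3 groups for 6 members, ADAM15, COL2A1, ITGB3BP, ITGB4, SDC1 and SDC4, where 11.7% of all features showed this. What set replicate 2 apart was not tested.

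**Figure D5:**
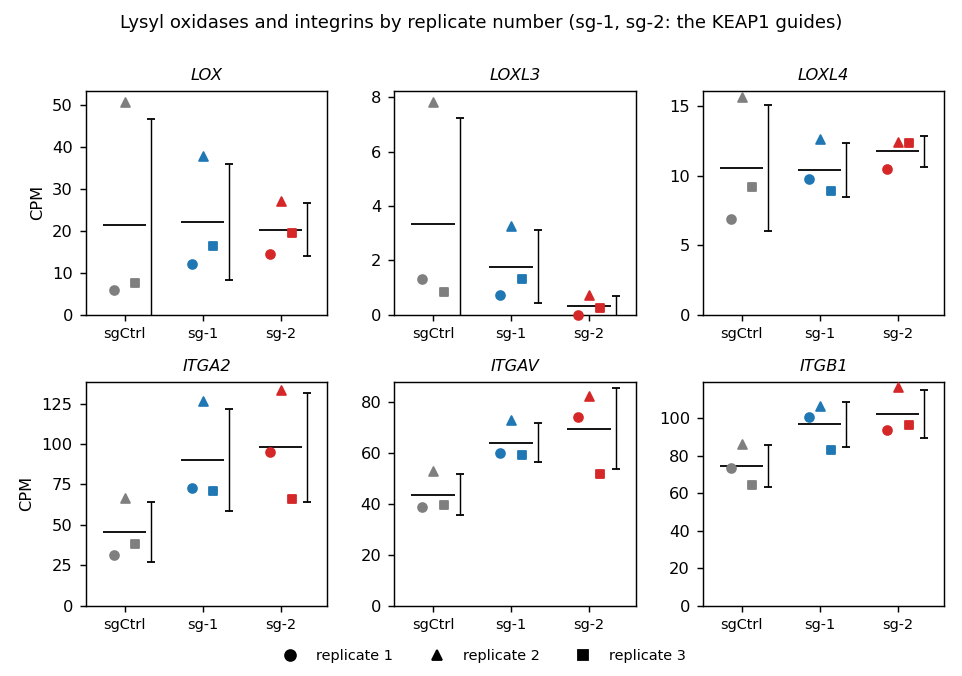
CPM of 3 lysyl oxidases and 3 integrins (vertical axes from 0) by group, with the marker shape giving the replicate number, a line at each group mean and a bar of 1 SD to its right, cut at 0. The triangle of replicate 2 is the highest point of every group in LOX, ITGA2, ITGAV and ITGB1, and for LOX it reaches 50.7 CPM in sgCtrl against 5.83 and 7.53 for the other libraries.

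Olfactomedin-like proteins are secreted glycoproteins, and OLFML1 and OLFML3 were in the table. OLFML1 had 6.36, 3.74 and 3.62 CPM in sgCtrl, 1.46, 0.87 and 0.26 with sgKEAP1-1 and 0, 0.24 and 0.24 with sgKEAP1-2. All KO libraries were below sgCtrl, and sgKEAP1-2 held 2 reads in all against 48 in sgCtrl, a ratio of 26.7 (95% exact counting interval 7.01 to 227). Its log2 fold changes were -2.35 (SE 0.57, adjusted p = 0.0297) and -4.49 (SE 0.77, adjusted p = 0.00143). The call with sgKEAP1-1 was lost without sgCtrl replicate 1 or 3 and without sgKEAP1-1 replicate 2 or 3 (adjusted p up to 0.189). OLFML3 had 3.98 to 7.81 CPM in sgCtrl, 5.88 to 8.77 with sgKEAP1-1 and 9.999 to 12.01 with sgKEAP1-2, and the log2 fold changes of 0.32 and 0.83 did not pass (adjusted p = 0.726 and 0.094). The 5 genes that share only letters with the families had log2 fold changes between -0.35 and 0.67 and none was called.

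No member differed between the guides at an adjusted p-value under 0.05, where 0.0181% of all features did. At an unadjusted p under 0.05 there were 11 of the 57 members with edgeR, where 5.08% of all features were, 11 with limma-voom and 8 with DESeq2. The 11 were ADAM9, ADAMTS6, COL6A1, ITGB2, LAMC3, MMP14, OLFML1, SDC3, SDC4, TIMP2 and TIMP3. The smallest p belonged to ADAM9, which was higher with sgKEAP1-2 by 1.06 (SE 0.25) on the log2 scale (adjusted p = 0.406 from edgeR). LAMC3 was higher with sgKEAP1-2 by 1.15 (SE 0.31, adjusted p = 0.653), and SDC4 was lower by 0.37 (SE 0.12, adjusted p = 0.877).

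The glycoproteins that collagens, laminins and integrins bind were read beside the members. Of 43 listed basement membrane and matrix glycoproteins, 23 were in the table and 19 tested, of which 5 rose and 1 fell with sgKEAP1-1 and 6 rose and 2 fell with sgKEAP1-2. The shares over all features against which these and the following lists are read are 2.8% higher and 1.4% lower with sgKEAP1-1, and 5.96% and 4.85% with sgKEAP1-2. TINAG, a basement membrane glycoprotein, had 0 reads in every sgCtrl library, 17.3, 29.9 and 12.4 CPM with sgKEAP1-1 and 18.8, 27.3 and 13.8 with sgKEAP1-2 (255 and 230 reads). Against the same floor, TINAG was at least 70.04-fold higher in the sgKEAP1-1 group. For sgKEAP1-2 the bound was at least 68.8-fold higher. SPP1, osteopontin, rose from 193.4, 194.6 and 137.5 CPM to 996.5, 1437 and 862.2 and to 1636, 1892 and 915.6 (log2 fold changes 2.65 and 3.08, adjusted p = 0.000482 and 9.09e-05). VCAN, the proteoglycan versican, rose by 1.58 and 1.70 on the log2 scale (adjusted p = 0.000274 and 7.83e-05).

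VTN, the liver-made ligand of ITGAV integrins, fell from 53.5, 37.4 and 51.0 CPM to 17.1, 15.3 and 29.2 and to 10.5, 8.78 and 14.3. Its log2 fold changes were -1.22 (SE 0.25, adjusted p = 0.0114) and -2.08 (SE 0.27, adjusted p = 0.000148), and the groups did not overlap. VTN and SPP1, both ligands of ITGAV integrins, thus moved in opposite directions. The summed hepatocyte markers given above were lower in the same libraries as VTN, and their part in that change was not tested.

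Of 26 genes of collagen synthesis and processing, 23 were in the table and tested, of which 1 rose and 1 fell with sgKEAP1-1 (2.8% and 1.4% of all features) and 3 rose and 2 fell with sgKEAP1-2 (5.96% and 4.85%). COLGALT2, a galactosyltransferase of collagen hydroxylysine, had 12.7, 13.6 and 8.37 CPM in sgCtrl, 46.0, 51.4 and 25.0 with sgKEAP1-1 and 68.0, 69.0 and 41.4 with sgKEAP1-2 (log2 fold changes 1.83 and 2.36, adjusted p = 0.0035 and 0.000259). PCOLCE2, an enhancer of procollagen processing, fell by 0.81 and 1.22 on the log2 scale (adjusted p = 0.0498 and 0.00237). With sgKEAP1-2 the prolyl 3-hydroxylase relative P3H4 and the chaperone FKBP10 also rose and PCOLCE, the close relative of PCOLCE2, fell.

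Among 27 heparan sulfate genes and glypicans, 19 were in the table and 17 tested. Of these, 1 rose and 1 fell with sgKEAP1-1 (2.8% and 1.4% of all features), and 1 rose and 2 fell with sgKEAP1-2 (5.96% and 4.85%). GPC1, a glypican, had 10.9, 8.17 and 11.2 CPM in sgCtrl, 42.9, 34.6 and 29.2 with sgKEAP1-1 and 56.3, 39.5 and 52.6 with sgKEAP1-2 (log2 fold changes 1.81 and 2.28, adjusted p = 0.000173 and 1.05e-05). NDST1, an enzyme that sulfates heparan chains, fell by 0.81 and 0.96 on the log2 scale (adjusted p = 0.0161 and 0.00277). Of 30 genes of the integrin adhesion complex, 26 were tested. None passed with sgKEAP1-1 (5 had an unadjusted p under 0.05, as had 15.0% of all features), and with sgKEAP1-2 5 rose and 2 fell, where 5.96% and 4.85% of all features did. Of 22 genes that control matrix proteolysis, 16 were tested. None passed with sgKEAP1-1 (3 had an unadjusted p under 0.05, against the same 15.0%), and with sgKEAP1-2 2 rose and 0 fell, read against the same 5.96% and 4.85%.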

How the data were processed

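RNA of 9 HepG2 libraries (3 sgCtrl, 3 sgKEAP1-1, 3 sgKEAP1-2) was profiled by QuantSeq, which reads the transcript end next to the poly(A) tail. The authors trimmed the reads (cutadapt 1.16), aligned them (STAR 2.7.5b), counted them per gene (featureCounts 1.6.3) and deposited whole-number counts without normalization. The methods name GRCh37 and the submitters' processing notes hg38, so no coordinates were taken from the counts. The strand setting, the annotation and any filter on rows are not given in the sources used here. The table had 12798 rows, and 1052 rows without an Entrez number (1.34% of reads) were left out of library sizes and tests.

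Symbols came from the RefSeq gene list by Entrez number (11740 of 11746 matched). Features passing edgeR's filterByExpr (11064) were scaled by TMM and tested with edgeR 4.0.16 (R 4.3.3, robust quasi-likelihood fit, group only, all 9 libraries), with Benjamini-Hochberg adjustment over all features and a threshold of 0.05. Adjusted p-values in the text come from this test unless another is named. Each SE was computed as the size of the fold change (log2) over the root of its F statistic. CPM are TMM-scaled. Ratios against a group with 1 to 3 reads have exact (Clopper-Pearson) 95% intervals. Groups of 3 libraries limit what low-count genes can show. An exact permutation test over 3 against 3 libraries cannot go below p = 0.1, and none is given for family sums.

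Named genes were all members past the threshold, the member with the most reads in each family, KEAP1 and NQO1, and up to 4 genes of each companion list past the threshold with both guides. Other genes named with values (among them COL4A5, ITGA2, ITGB1, LAMB2, LOXL3 and MMP7) were picked with their values in view. The members, lists and tests were chosen with earlier results of these data known. Alternatives were a replicate block, DESeq2 (1.42.0) size factors, library size only, limma-voom (limma 3.58.1), the DESeq2 Wald test, no filter, at least 10 counts in every library, a fit of only the 2 groups compared, a minimum log2 fold change of 1, each library left out in turn and all of replicate 2 left out. The tests were tested on simulated data. Promoter windows came from RefSeq (GRCh38.p14), with 45 of 62 members matched.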

Additional observations from a re-analysis of the deposited data

How the results depend on the processing

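For the called members and the member with the most reads in each family, 1040 log2 fold changes were recomputed. Of these, 934 kept their direction and side of the threshold and 84 lost the threshold. Another 5 gained it and 17 changed sign, of which 1, LOX with sgKEAP1-2 without replicate 2, also gained it. COL26A1, COL4A5, ITGA1, ITGA2, ITGB1 and LAMB2, which gained calls with the replicate block, were not among these members. With at least 10 counts in every library, where fewer low-count genes are tested, members higher and lower were 3 and 2 with sgKEAP1-1 and 7 and 4 with sgKEAP1-2. With only the 2 groups compared in the fit, 4 rose with sgKEAP1-1. A log2 fold change of at least 1 left 3 lower with sgKEAP1-1 and 4 with sgKEAP1-2, and leaving out all of replicate 2 left 3 lower with sgKEAP1-1. With each library left out in turn, members higher and lower were 2 to 9 and 1 to 5 with sgKEAP1-1, and 8 to 14 and 6 to 8 with sgKEAP1-2. The libraries whose removal moved a count by over 1.5 times were sgCtrl replicate 1 (3 and 1 with sgKEAP1-1, 8 higher with sgKEAP1-2), sgCtrl replicate 3 (2 and 2 with sgKEAP1-1), sgKEAP1-1 replicate 1 (4 and 2) and sgKEAP1-1 replicate 2 (3 lower). The median log2 fold change with sgKEAP1-1 was 0.21 with limma-voom, 0.083 with the stricter filter, 0.078 with only 2 groups and 0.10 to 0.24 with a library left out, and that with sgKEAP1-2 was 0.106 with the stricter filter. Beyond the size rule, under which TIMP2 with sgKEAP1-1 drops out, COL2A1, LAMC3 and TIMP2 kept their calls with both guides under every alternative that tested them. The cause of the other changes was not tested. Shares over all features are given here only for the main fit and the replicate block. The other counts thus do not show whether members lost calls more often than other features.

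Sign changes were seen only in genes that were not called. With libraries left out, the log2 fold change ranged from -0.023 to 0.175 (sgKEAP1-1) and -0.247 to 0.067 (sgKEAP1-2) for ADAM10, and with sgKEAP1-1 from -0.146 to 0.868 for ADAMTSL4, -0.121 to 0.038 for ITGA6, -0.028 to 0.272 for ITGB5 and -0.544 to 1.737 for LOX. LOX with sgKEAP1-2 ranged from -0.486 to 1.61, and was 0.30 with the replicate block, 0.71 with limma-voom and 1.358 without replicate 2.

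Same-numbered libraries also share a prefix in their labels that the sources do not explain. Across genes, 7 of 9 same-numbered pairs had residual correlations over 0.1 (range -0.01 to 0.52). On the mean per replicate number, 8 of 9 libraries correlated best with their own number, a hint from the data and not from the design. As single libraries, sgKEAP1-1 replicate 1 and sgKEAP1-2 replicate 3 correlated best with each other (0.27). With the replicate block, 10 members rose and 5 fell with sgKEAP1-1 and 16 rose and 11 fell with sgKEAP1-2 (5.11% and 3.72%, then 9.11% and 8.57% of all features), with a median log2 fold change of 0.22 for sgKEAP1-1, and no call was lost. Between the guides, 13 members had an unadjusted p under 0.05 with the block and none passed after adjustment. Those gained were ADAMTSL5, ITGA2 (adjusted p = 9.12e-05) and ITGAV (0.0146) with sgKEAP1-1, and COL26A1, COL4A5, ITGA1 (0.0364), ITGA2 (1.25e-05), ITGB1 (0.0102), LAMB2 and SDC2 with sgKEAP1-2. Low-count members (LAMC3, MMP2, MMP7, ITGA10, OLFML1) are limited by depth.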

Other observations

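Further genes of the companion lists, named after their values were seen, add to the matrix changes. FN1, fibronectin, had the most reads of the matrix glycoproteins and rose from 3698, 4743 and 3237 CPM in the sgCtrl libraries to 5950, 7586 and 5282 with sgKEAP1-1 and 6352, 7783 and 5988 with sgKEAP1-2 (log2 fold changes 0.69 and 0.79, adjusted p = 0.0344 and 0.00807, edgeR). EMILIN1, an elastic fibre glycoprotein, rose with both guides (1.08 and 0.93, adjusted p = 0.00999 and 0.0152). HSPG2, the basement membrane proteoglycan perlecan, rose with sgKEAP1-2 (0.76, adjusted p = 0.0265). FREM1, a basement membrane protein of epithelia, fell with sgKEAP1-2, from 16.96, 23.1 and 13.7 CPM in sgCtrl to 5.85, 3.66 and 1.94 (log2 fold change -2.25, adjusted p = 0.00116), and had 9.26, 16.8 and 10.3 CPM with sgKEAP1-1 (-0.55, adjusted p = 0.478). Between the guides FREM1 did not pass (adjusted p = 0.313).

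Of the 26 tested genes of the integrin adhesion complex, 5 rose and 2 fell with sgKEAP1-2, where 5.96% and 4.85% of all features did. TLN1, the talin that activates integrins, rose by 0.70 on the log2 scale (adjusted p = 0.00286), as did the adaptors BCAR1 (0.56, adjusted p = 0.00911) and PXN (0.52, adjusted p = 0.0494), the kinase SRC (0.61, adjusted p = 0.0202) and TGFB1I1 (1.90, adjusted p = 0.0301). TLN2, the other talin, fell by 0.54 (adjusted p = 0.044) and FERMT2, a kindlin, by 0.61 (adjusted p = 0.0191). The proprotein convertases FURIN (0.58, adjusted p = 0.0349) and PCSK5 (3.14, adjusted p = 0.00301), which process many secreted and surface proteins, were those of the proteolysis list that rose with sgKEAP1-2. HS3ST3B1, a heparan sulfate sulfotransferase, fell with the same guide by 0.95 (adjusted p = 0.0148). Passing with sgKEAP1-2 alone does not show that the guides differ.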
